A study of Mus musculus with 2 samples.

Results

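Cells that carried smooth muscle transcripts and few transcripts of 4 cardiac sarcomere genes were examined in the cardiac neural crest region of the E9.5 mouse embryo. They were chosen by counts of unique molecular identifiers (UMIs, each marking 1 captured transcript): at least 3 UMIs summed over Acta2, Tagln and Cnn1, at most 5 UMIs summed over the cardiac genes Myl7, Myl4, Actc1 and Tnnt2, and fewer than 3 of 9 endothelial genes detected (Pecam1, Cdh5, Tek, Tie1, Emcn, Egfl7, Esam, Plvap and Cldn5). The rule held for 352 of 21723 cells, 192 of 11958 in the WT library and 160 of 9765 in the KO library. Because the 16 genes of the rule selected these cells, their levels are given below as a description of the choice and support nothing. The members are referred to as the selected cells, since the rule cuts a range of counts and the genes that lead them, given below, are not mainly those of smooth muscle.

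Tissue that reached from the middle of the otic placode back to the end of somite 4 was dissected from embryos of strain C57BL/6, and the comparison asks how loss of Prdm6 in neural crest affects its cells. Embryos with both normal alleles (Prdm6+/+; Wnt1-Cre2; ZsGreen1) gave the WT library, and embryos with both floxed alleles (Prdm6f/f; Wnt1-Cre2; ZsGreen1) gave the KO library. The Wnt1-Cre2 driver and the ZsGreen1 reporter were thus shared by both genotypes. Wnt1 regulatory sequences drive Cre in the dorsal neural tube and the neural crest that leaves it. No sorting of reporter-positive cells is described, the reporter is not among the genes measured, and cells of other lineages keep Prdm6 in both libraries. The embryos of a genotype were pooled under sample barcodes that are not used here, which left 1 library per genotype and no replicate check for any difference below.

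Vascular smooth muscle cells wrap the great arteries, and those of the aortic arch arteries come from the cardiac neural crest, while those of the proximal outflow tract come from second heart field mesoderm. Early in their differentiation they switch on smooth muscle α-actin (Acta2), transgelin (Tagln) and calponin 1 (Cnn1), and later smooth muscle myosin heavy chain (Myh11). The cofactor myocardin (Myocd) drives these genes through serum response factor (SRF), which binds a DNA element called the CArG box. Acta2 and Tagln are also transcribed in the early heart tube and in several embryonic mesenchymes, so neither alone marks smooth muscle.

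The median depth was 1829 UMIs in the selected cells of WT and 1997 in those of KO, above the 1527 and 1611 of the remaining cells, so the rule favoured deeper cells. Remaining cells are those that met neither the rule nor the definitions of cardiac cells (over 5 UMIs of the 4 cardiac genes) and endothelial cells (at least 3 of the 9 genes). There were 10271 remaining, 1034 cardiac and 461 endothelial cells in WT, and 8575, 657 and 373 in KO. The libraries shared 26 cell barcodes, of which 0 fell among the selected cells of WT and 1 among those of KO. Values per gene are UMIs per 1000000 UMIs of a class of cells (CPM). Intervals in parentheses are exact 95% intervals (Poisson for CPM, Clopper-Pearson for shares, conditional binomial for ratios) that cover counting error only, and no test across cells was made. Where a count was 0, the level or share it allows is given as 3 counts of the total.

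The stretch around the transcription start is shown for the rule genes Acta2 and Cnn1 and for Myl9, the smooth muscle regulatory light chain gene that was the most raised contractile gene outside the rule, because SRF acts on such genes through CArG boxes near the start. Each window runs from 250 bases before to 50 bases after the start (RefSeq, GRCm38.p6), 5′ to 3′ on the strand of the gene. Acta2 lies on the minus strand of chromosome 19 (window chr19:34255324-34255623), Cnn1 on the plus strand of chromosome 9 (chr9:22099003-22099302) and Myl9 on the plus strand of chromosome 2 (chr2:156775214-156775513). Capitals mark matches to the CArG box, exact or with 1 C or G in its A/T core.
Acta2: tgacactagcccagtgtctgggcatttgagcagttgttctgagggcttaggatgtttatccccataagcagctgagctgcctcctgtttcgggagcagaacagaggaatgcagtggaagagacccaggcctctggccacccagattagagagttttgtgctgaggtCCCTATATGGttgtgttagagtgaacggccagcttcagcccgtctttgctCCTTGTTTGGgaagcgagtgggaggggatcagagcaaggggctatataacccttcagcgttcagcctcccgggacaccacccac
Cnn1: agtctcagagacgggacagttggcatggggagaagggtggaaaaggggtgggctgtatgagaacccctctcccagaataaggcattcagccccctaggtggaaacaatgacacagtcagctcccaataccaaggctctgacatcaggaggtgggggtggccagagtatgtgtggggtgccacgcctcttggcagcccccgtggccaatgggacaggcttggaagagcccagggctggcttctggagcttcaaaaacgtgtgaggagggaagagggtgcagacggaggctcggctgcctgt
Myl9: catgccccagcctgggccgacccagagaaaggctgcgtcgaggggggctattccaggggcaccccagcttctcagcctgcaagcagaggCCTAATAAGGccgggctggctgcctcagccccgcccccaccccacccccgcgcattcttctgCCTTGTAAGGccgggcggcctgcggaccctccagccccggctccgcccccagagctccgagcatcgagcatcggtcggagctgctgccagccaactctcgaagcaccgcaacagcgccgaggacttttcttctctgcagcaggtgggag
The Acta2 window held 2 matches, which began 84 and 34 bases before the start, both with 1 C or G in the core. The Myl9 window held an exact match 161 bases before the start and a match with 1 C or G 99 bases before it. The Cnn1 window held 0 matches. Both strands are covered because the element is a palindrome in its pattern. Over all 27025 genes with a window, 488 (1.81%) held an exact match and 3050 (11.3%) a match with at most 1 C or G. Of the 25 genes with a window, rule genes left out, among those at least 2-fold higher in the selected cells, described below, 4 (16%) held an exact match and 8 (32%) the looser one. These were Cnn2, Col1a2, Glipr2, Lpp, Myadm, Myl9, Pmp22 and Tmem108. A match is a run of letters and not a site shown to be bound.

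The selected cells made up a like share of both libraries. They were 1.61% of WT cells (1.39% to 1.85%) and 1.64% of KO cells (1.396% to 1.910%), a log2 ratio of KO over WT of 0.03 (−0.28 to 0.34). When each cell was thinned to 1000 UMIs, with the 1361 WT and 125 KO cells of lower depth set aside, 81 of 10597 WT cells (0.764%) and 68 of 9640 KO cells (0.705%) met the rule, and the log2 ratio was −0.12 (−0.60 to 0.37). Erythroid cells, taken from every class by globin genes holding at least 5% of the UMIs, should lack smooth muscle transcripts, and their UMIs show what free RNA can give. The rule was met by 4 of 563 such cells in WT (0.710%, 0.194% to 1.81%), whose median was 2020 UMIs. In KO it was met by 0 of 220, at a median of 2453 UMIs, which allows up to 1.36% by 3 counts and up to 1.66% by the exact interval. The exact intervals of selected and erythroid shares overlapped in both libraries. After thinning these counts were 0 of 552 and 0 of 217, which allow up to 0.543% and 1.38%. The thinned share of selected cells lay above that limit in WT and below it in KO.

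Most selected cells lay at the edge of the rule. The sum of Acta2, Tagln and Cnn1 was exactly 3 UMIs in 122 of the 192 WT cells (63.5%) and in 101 of the 160 KO cells (63.1%), and 554 WT and 451 KO cells sat just outside with a sum of 2. A sum of 5 or more was reached by 34 WT and 38 KO cells, with a highest value of 12 UMIs in WT and 16 in KO. On the cardiac side, 13 WT and 9 KO cells had the largest sum allowed (5 UMIs), and 9 WT and 6 KO cells that met the other conditions were left out with a sum of 6. In all, 676 WT and 399 KO cells had at least 3 smooth muscle UMIs but over 5 cardiac UMIs, more than the selected cells themselves. On the endothelial side, 12 WT and 5 KO selected cells had 2 of the 9 genes detected, and 4 WT and 0 KO cells were left out with 3.

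**Figure D1:**
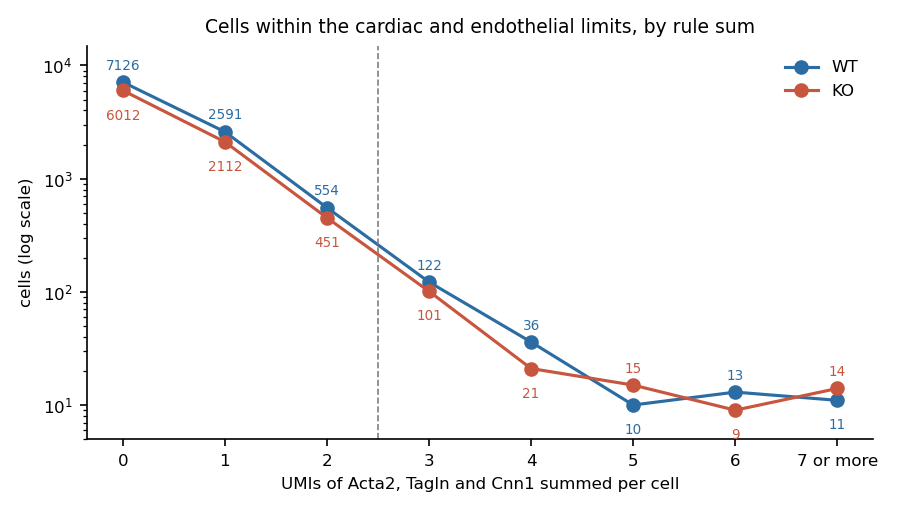
Number of cells (log axis) by the sum of Acta2, Tagln and Cnn1 UMIs among cells within the cardiac and endothelial limits, in WT and KO. Numbers beside the points are cells, the dashed line marks the rule, and selected cells lie to its right. At a sum of 2 there were 554 WT and 451 KO cells, and at a sum of 3 there were 122 and 101.

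Acta2 supplied most of the UMIs that chose the cells, and Cnn1 very few. Of the 734 UMIs of the 3 genes in WT, 509 were of Acta2, 213 of Tagln (29.0%, 25.8% to 32.5%) and 12 of Cnn1. Of the 636 in KO, 377 were of Acta2, 245 of Tagln (38.5%, 34.7% to 42.4%) and 14 of Cnn1. The Tagln share of these UMIs was 17.8% in WT and 18.7% in KO among remaining cells, and 19.9% and 22.5% among cardiac cells. Endothelial cells had shares of 30.7% in WT and 32.7% in KO, so a higher Tagln share was not particular to the selected cells. Acta2 was detected without Tagln or Cnn1 in 84 WT cells (43.8%, 36.6% to 51.1%) and 50 KO cells (31.3%, 24.2% to 39.0%). Acta2 and Tagln were detected together in 90 WT cells (46.9%) and 92 KO cells (57.5%, 49.4% to 65.3%). All 3 genes were found in 5 WT and 7 KO cells. These shares describe cells chosen on the sum of the 3 genes.

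The cardiac genes of the rule were at the level of the rest of the tissue. Myl7, Myl4, Actc1 and Tnnt2, which encode atrial light chains, cardiac α-actin and troponin T, summed to 1029 CPM in WT and 1007 CPM in KO selected cells. The sums were 975 and 932 CPM in remaining cells and 18651 and 16088 CPM in cardiac cells. At least 1 cardiac UMI was present in 162 of the 192 WT and 146 of the 160 KO selected cells. The 19 other sarcomere genes (Myh6, Myh7, Tnni1, Ttn and others) summed to 1075 and 1152 CPM against 850 and 914 CPM in remaining and 12026 and 12110 CPM in cardiac cells. The sarcomere genes that the rule did not use were thus a little above remaining cells and far below cardiac cells. Cardiac cells were defined by sarcomere genes, so the gap below them follows in part from the definitions. In erythroid cells the 19 genes summed to 712 and 586 CPM, and the cardiac genes of the rule to 818 and 728 CPM. The part of free RNA in these levels was not tested.

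Apart from the rule genes, matrix genes led the selected cells. Folds below compare selected with remaining cells of the same library, with 10 CPM added to each side, and are a description, since the rule cut these cells by their counts. Among 3070 genes with at least 50 UMIs in the selected cells of both libraries together, 35 (1.14%) were at least 2-fold higher in both libraries and 3 (0.0977%) at least 2-fold lower. The median fold over all 3070 genes was 0.995 in both libraries. First came Col1a1 (chromosome 11, 94936224 to 94953042, plus strand, GRCm38), the α1 chain of type I collagen. It stood at 1899 CPM in WT (1760 to 2045) and 958 CPM in KO (857 to 1067) against 118 and 64.6 CPM in remaining cells, 14.9-fold and 12.97-fold. Col1a1 was 99.9 and 87.2 CPM in cardiac cells and 11.3 and 7.69 CPM in endothelial cells, so neither excluded class shared this level.

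Of 17 matrix genes with enough UMIs, 9 were at least 2-fold higher in both libraries, and the leading genes also held a transcription factor, a signal and genes of other kinds. Postn (periostin, a matrix protein of cushions and fibroblasts) was at 566 CPM in WT and 192 CPM in KO, 14.3-fold and 9.46-fold over remaining cells. Hand1, a transcription factor of lateral mesoderm and outer heart curvature, was at 137 and 69.6 CPM, 6.13-fold and 4.77-fold. Bmp2, a bone morphogenetic protein ligand, was at 118 and 131 CPM, above the 19.6 and 21.4 CPM of remaining cells but below the 155 and 161 CPM of cardiac cells. Col1a2, Col3a1, Col5a1 and Col5a2, which encode further fibrillar collagen chains, were 2.08-fold to 6.00-fold higher. Lum, a small leucine-rich proteoglycan of fibroblasts, was 6.02-fold higher in WT and 2.87-fold in KO. Sparc, a collagen-binding matrix glycoprotein, was 3.11-fold and 3.88-fold higher, at 465 and 511 CPM, but stood at 617 and 703 CPM in endothelial cells. The whole matrix list was at 7992 and 5824 CPM in selected cells and at 7073 and 7138 CPM in endothelial cells. Pmp22, Ahnak, Ccdc80, Anxa2, Glipr2, Pcdh7 and Tmem108 were among the 20 leading genes, at folds between 2.61 and 3.82. Of the 3 genes that were lower, Hbb-bh1, Hba-a1 and Hba-a2, all encode globins.

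**Figure D2:**
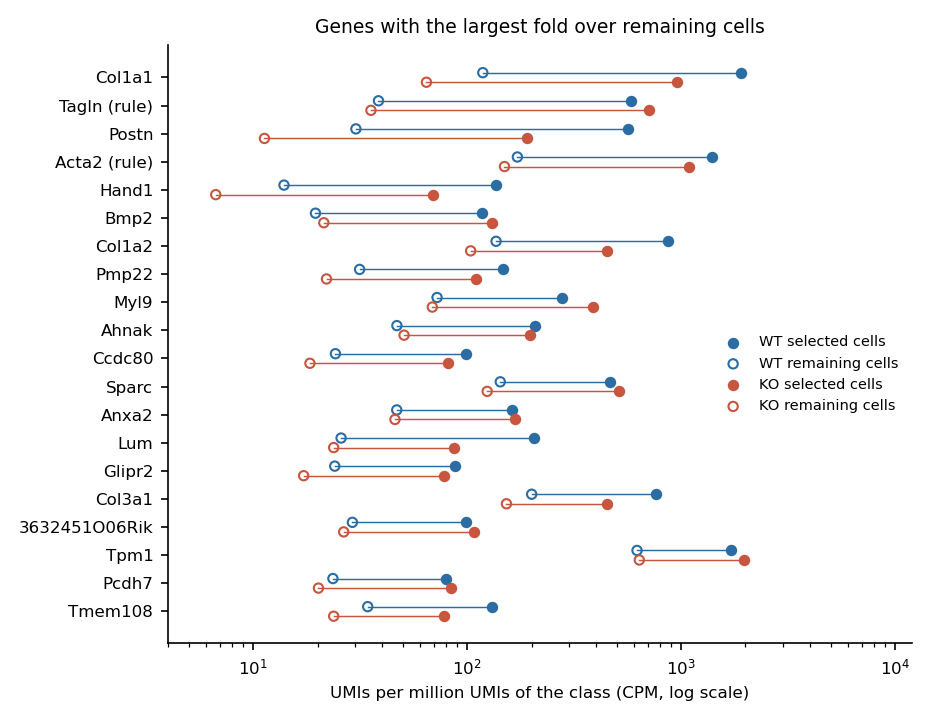
CPM (log axis) of the 20 genes with the largest fold over remaining cells, in selected cells (filled) and remaining cells (open) of WT and KO, with the rule genes marked. Col1a1 heads the order at 1899 and 958 CPM, and its open points lie at 118 and 64.6 CPM.

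Contractile genes outside the rule were about 2-fold above remaining cells as a list, while late smooth muscle genes were scarce. The list of 28 genes, many of which other cell types also transcribe (Flna, Actn1, Tpm1), summed to 5373 CPM in WT (5138 to 5616) and 6558 CPM in KO (6290 to 6834), 1.97-fold and 2.28-fold the level in remaining cells. Cardiac cells stood higher, at 9445 and 9353 CPM. Of the 13 with enough UMIs, 4 were at least 2-fold higher in both libraries, Myl9, Tpm1, Cnn2 and Lpp. Myl9 was at 276 CPM in WT and 386 CPM in KO, against 72.4 and 68.8 CPM in remaining and 1375 and 1108 CPM in cardiac cells. It was detected in 33.9% and 42.5% of selected cells, and in 9.06% and 6.82% of the deeper erythroid cells. Tpm1, the tropomyosin gene used in all muscle types, was at 1713 and 1973 CPM against 622.4 and 637.9 CPM. Cnn2, the calponin of non-muscle and smooth muscle cells, was 2.11-fold and 2.78-fold higher. Myh11, the definitive marker of mature smooth muscle, had 1 UMI in each library. Actg2 (enteric smooth muscle γ-actin) had 2 and 3 UMIs, Lmod1 (leiomodin) 2 and 3, Kcnmb1 (the smooth muscle potassium channel subunit) 0 and 3, and Mylk (myosin light chain kinase) 3 and 5. A level of 0 UMIs in WT allows up to 8.21 CPM.

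Among 27 measured regulators of smooth muscle, Hand1 and Hand2 were at least 2-fold higher than in remaining cells in both libraries, of 14 with enough UMIs. Hand2 was 2.39-fold and 2.49-fold higher. Myocd, which had too few UMIs for that count, stood at 35.6 CPM in WT (13 UMIs in 12 cells) and 31.9 CPM in KO (11 UMIs in 7 cells), against 7.50 and 8.08 CPM in remaining and 103 and 97.2 CPM in cardiac cells. Gata6 was at 320 CPM in WT and 180 CPM in KO, 2.37-fold and 1.81-fold over remaining cells. Srf had 13 and 16 UMIs, and Klf4, a repressor of the contractile genes, 1 and 2. Markers of pericytes were few. The 10 measured mural genes summed to 254.4 and 261.2 CPM, of which Notch3, a receptor that arterial smooth muscle uses, supplied 40 and 34 UMIs, Pdgfrb 23 and 30, and Rgs5 15 and 12. Cspg4 had 1 and 0 UMIs, and Anpep and Higd1b 0 in both.

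Contractile and matrix genes were higher in cells with more smooth muscle UMIs. The contractile list stood at 2643 CPM at a sum of 0, at 4389 CPM at 3 and at 7300 CPM at 5 or more in WT, and at 2823, 5065 and 9631 CPM in KO. Myl9 was at 64.7, 174 and 528 CPM in WT and at 66.1, 218 and 717 CPM in KO. Col1a1 was at 86.5, 1536 and 3772 CPM in WT and at 54.6, 427 and 1885 CPM in KO, but at a sum of 4 the order of the libraries was the other way (892 and 1540 CPM). Myocd was at 6.78, 26.8 and 64.4 CPM in WT and at 8.27, 9.49 and 71.7 CPM in KO, where the last 2 values of each rest on 2 to 7 UMIs. The migrating neural crest list was lower, at 2038 CPM at a sum of 0 and 966 CPM at 5 or more in WT, and at 2214 and 789 CPM in KO. Crabp1, a retinoic acid binding protein gene of crest and hindbrain, held 86.6% of this list's UMIs in selected cells of WT and 80.8% in those of KO, so its values are largely those of Crabp1. The other 9 genes (Sox10, Foxd3, Tfap2a and others) were at 341 and 116 CPM in WT, the latter on 9 UMIs, and at 342 and 195 CPM in KO, the latter on 19. The 4 cardiac genes of the rule were at 954 CPM at a sum of 0 and 940 CPM at 5 or more in WT, and at 915 and 861 CPM in KO. Erythroid genes were also lower at the high end, at 17220 and 3515 CPM in WT and 8854 and 1639 CPM in KO. Median depth at the low and high ends was 1525 and 2073 UMIs for WT, and 1612 and 2625 UMIs for KO. The part of depth and erythroid RNA in these gradients was not tested.

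**Figure D3:**
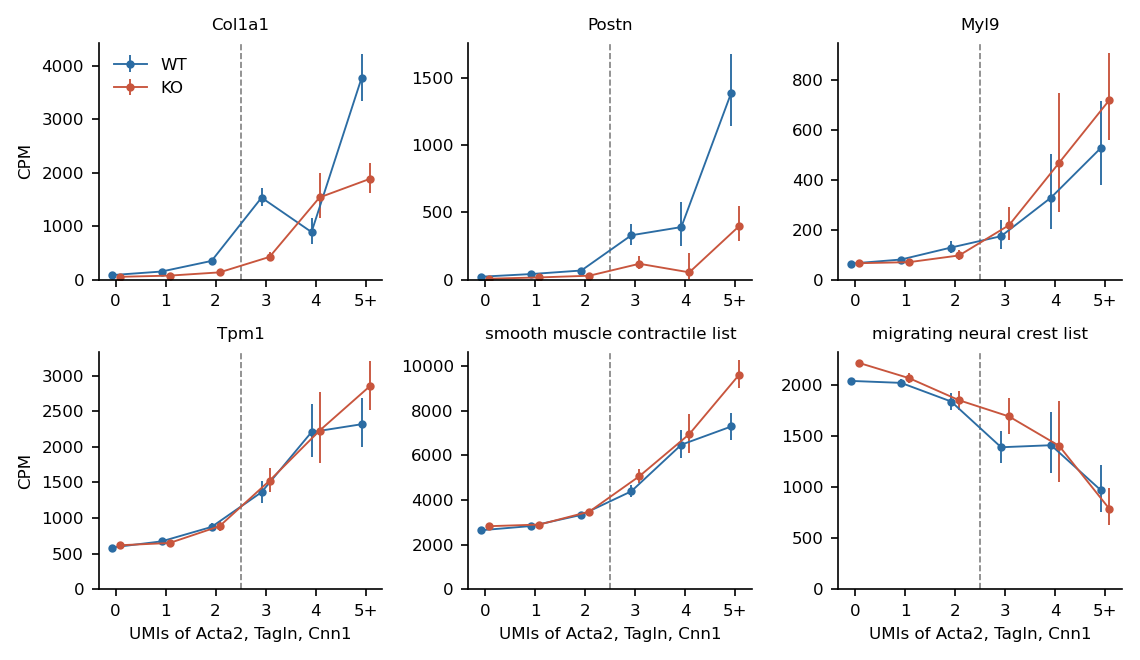
CPM of 4 genes and 2 gene lists by the sum of Acta2, Tagln and Cnn1 UMIs, among cells within the cardiac and endothelial limits of WT and KO. Points are sums over cells with exact Poisson 95% intervals, and the dashed line marks the rule. Col1a1 and Postn were higher in WT than in KO at a sum of 5 or more, whereas Myl9 and Tpm1 overlapped.

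Most UMIs of several leading genes came from a minority of the selected cells. Col1a1 was detected in 75 WT cells (39.1%) and 54 KO cells (33.8%), against 3.55% and 3.64% of erythroid cells. At least 3 Col1a1 UMIs were present in 51 WT cells (26.6%) and 30 KO cells (18.8%), which held 664 of the 694 Col1a1 UMIs in WT and 298 of the 330 in KO. This division was made after the values were seen and sets Col1a1 by construction. With it went Postn, at 1792 CPM in these WT cells against 39.1 CPM in the other selected cells, and at 787 against 7.597 CPM in KO. Lum stood at 600 against 35.2 CPM in WT and 209 against 49.4 CPM in KO. Hand1 was at 391 against 27.4 CPM and 184 against 34.2 CPM. Dlk1, an imprinted gene of mesenchymal progenitors, was at 1428 against 235 CPM and 565 against 182 CPM. Bmp2 was at 291 against 43.0 CPM and 356 against 60.8 CPM.

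Contractile genes outside the rule were higher in Col1a1-rich than in Col1a1-poor cells. The contractile list was at 7004 against 4672 CPM in WT and 9525 against 5641 CPM in KO, and Tpm1 at 2410 against 1413 CPM and 3048 against 1641 CPM. Crabp1 was lower in Col1a1-rich cells, at 773 against 1279 CPM in WT and 516 against 1326 CPM in KO. The other 9 genes of the migrating neural crest list were at 91.0 against 211 CPM in WT and 159.8 against 304 CPM in KO. Col1a1-rich cells were deeper, with medians of 2077 against 1641 UMIs in WT and 2686 against 1842 UMIs in KO. A Postn UMI was found in 29 of the 51 WT and 9 of the 30 KO Col1a1-rich cells, and a Tagln UMI in 30 and 23.

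**Figure D4:**
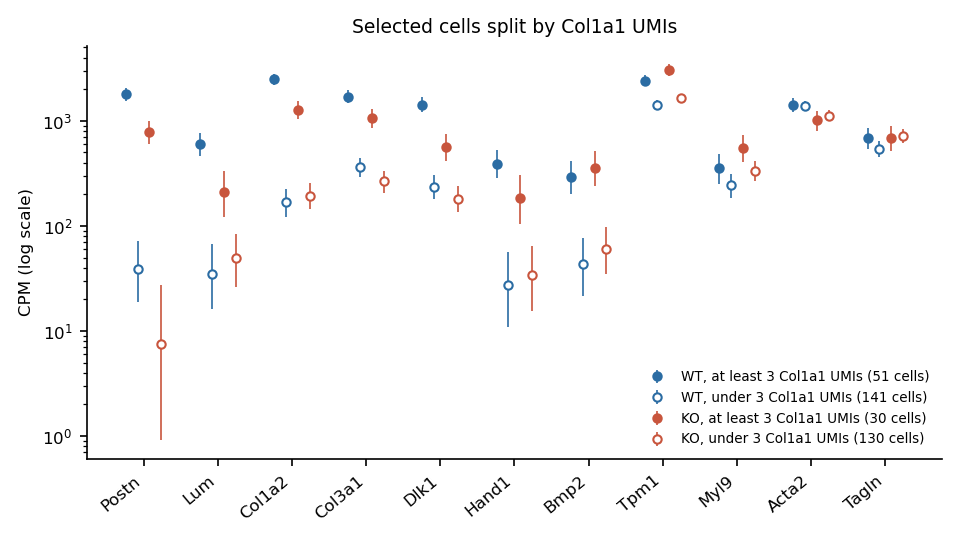
CPM (log axis) of 11 genes in selected cells with at least 3 Col1a1 UMIs (filled) and under 3 (open), in WT and KO, with exact Poisson 95% intervals. Postn, Lum, Col1a2, Col3a1, Dlk1, Hand1 and Bmp2 lay higher in the filled points of both libraries. The rule chose all these cells on the sum of Acta2, Tagln and Cnn1.

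The cells with Acta2 alone and those with Tagln also differed. In WT, cells with Acta2 but neither Tagln nor Cnn1 had Postn at 866 CPM and Lum at 347 CPM, and cells with Tagln had 354 and 105 CPM. Myl9 ran the other way, at 135 CPM with Acta2 alone and 394 CPM with Tagln, and the contractile list at 4075 and 6397 CPM. In KO the contractile order was the same, with Myl9 at 135 and 495 CPM and the list at 4307 and 7524 CPM. The matrix order was not. Postn in KO was at 176 CPM (103 to 282) and 200 CPM (147 to 265), intervals that overlapped. Col1a1 was at 467 and 1173 CPM in KO, whereas Col1a1 in WT was at 2207 and 1642 CPM. Median depth was 1684 UMIs with Acta2 alone and 1946 UMIs with Tagln in WT, and 1847 and 2294.5 UMIs in KO. The part of depth in these differences was not tested. Heyl, a Notch target and transcriptional repressor, had 2 UMIs with Acta2 alone and 11 with Tagln in WT, and 0 and 27 in KO.

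Lineage genes in the selected cells were mixed, with splanchnic mesoderm genes above remaining cells and below cardiac cells. A cell was counted for a list with at least 2 UMIs over it, so the sets overlap and are ranges of a score. Genes of splanchnic mesoderm, the layer around the foregut and heart (Foxf1, Gata4, Hand1, Hand2, Osr1 and others), were counted in 28.6% of selected cells in WT (22.4% to 35.6%) and 24.4% in KO (17.9% to 31.8%). The list summed to 722 and 514 CPM in selected, 347 and 256 CPM in remaining and 986 and 858 CPM in cardiac cells. Of its 4 genes with enough UMIs, 2 were at least 2-fold higher in both libraries, Hand1 and Hand2, also counted as regulators above. Hand1 held 50 and Hand2 43 of the list's 264 UMIs in selected cells of WT, and 24 and 33 of 177 in KO. The shares of cells were 11.9% and 8.63% of remaining cells and 3.02% and 1.82% of erythroid cells. After thinning they were 19.2% and 11.4% of selected against 7.22% and 4.03% of remaining cells. The migrating neural crest list, mostly Crabp1, was counted in 28.0% of selected cells in WT and 39.2% in KO after thinning, against 40.6% and 49.2% of remaining and 17.3% and 20.7% of erythroid cells. Sox10, which marks migrating neural crest, was detected in 5 selected cells of each library, and in 5.94% and 6.44% of remaining cells. Genes of neural crest mesenchyme in the arches (Dlx1, Dlx2, Twist1, Prrx1 and others) were counted after thinning in 9.89% and 17.1% of selected and 11.2% and 10.4% of remaining cells. Mural genes were counted after thinning in 4.95% and 4.43% of selected and 1.42% and 1.01% of remaining cells. Neural tube genes were counted after thinning in 12.1% of selected cells in WT and 8.86% in KO, against 18.97% and 18.54% of remaining cells. Second heart field genes were counted after thinning in 9.34% and 13.9% of selected and 7.25% and 6.45% of remaining cells, head mesenchyme genes in 13.2% and 12.7% against 10.6% and 8.20%, and surface ectoderm genes in 7.69% and 7.59% against 4.75% and 3.77%. Macrophage and megakaryocyte genes summed to 3 UMIs in each library, endothelial genes outside the rule to 101 and 128 CPM (118 and 99.7 CPM in remaining cells) and neuron genes to 101 and 95.8 CPM (134 and 138 CPM).

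The targeted gene could not be compared within the selected cells. Prdm6 (chromosome 18, GRCm38), a histone methyltransferase gene of the PR domain family, had 0 UMIs in WT, which allows up to 8.21 CPM and up to 1.56% of the cells with a UMI, and 4 UMIs in KO (11.6 CPM). Remaining cells had 73 UMIs (4.28 CPM) in WT and 31 (1.96 CPM) in KO, and cardiac cells 28 and 23 UMIs. The exact interval of the ratio in selected cells reached down to −0.51 on the log2 scale. Transcripts were read at their 3′ ends, which may lie outside the deleted stretch, so these UMIs do not check the deletion, and the rule does not ask for the Wnt1 lineage.

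The selected cells of the 2 libraries were compared gene by gene over 4731 genes with at least 30 UMIs. The size rule asked for a 2-fold difference and an interval that left out 0, with intervals not adjusted for the number of genes. It was met by 59 genes that were higher in KO (1.25%) and 86 that were lower (1.82%). The interval left out 0 for 263 genes that were higher (5.56%) and 227 that were lower (4.8%). The median log2 ratio over all 4731 genes was −0.00, and 90% of genes lay between −0.78 and 0.67. The lowest ratios were led by erythroid genes. The 5 globin genes Hba-a1, Hba-a2, Hba-x, Hbb-bh1 and Hbb-y, and Slc25a37, the mitochondrial iron carrier of red cells, were among the 10 lowest, beside Dcn, Zfpm1, Med9 and Gtf3c3. Hba-a1 went from 944 to 131 CPM and Hbb-y from 2979 to 917 CPM, and all 5 genes of the erythroid list that were tested met the size rule in this direction. The erythroid list summed to 7992 CPM in WT and 2110 CPM in KO, and to 16030 and 8319 CPM in remaining cells. Without the cells that had at least 1% globin UMIs, which left 166 WT and 160 KO cells, its log2 ratio was −0.99 in place of −1.92. Its part in other differences was not tested, and other values without these cells are given where they moved.

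Contractile genes were slightly higher in the KO library, without any meeting the 2-fold rule. The list of 28 stood 0.29 higher on the log2 scale (0.20 to 0.38), against 0.08 (0.06 to 0.09) in remaining and −0.01 (−0.04 to 0.02) in cardiac cells. Of 16 tested, the interval left out 0 for 6 that were higher (Myl9, Tpm1, Cald1, Cnn2, Actn1 and Flna) and 1 that was lower (Csrp2), and the median was 0.35. Cnn2 went from 413 to 624 CPM (0.59, 0.29 to 0.90). Myl9 went from 276 to 386 CPM (0.48, 0.10 to 0.87). Tpm1 went from 1713 to 1973 CPM (0.20, 0.05 to 0.36). Csrp2, a LIM domain protein of smooth muscle, went from 342 to 247 CPM (−0.47, −0.89 to −0.06). After thinning the list stood at 0.19 (0.06 to 0.32). Within the rule, Acta2 was at 1393 CPM in WT and 1094 CPM in KO (−0.35, −0.54 to −0.15) and Tagln at 583 and 711 CPM (0.29, 0.02 to 0.56). Among cells with a Tagln UMI, a choice made on Tagln itself, Tagln was at −0.06 (−0.33 to 0.21). These ratios of rule genes describe the choice of cells.

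Col1a1, Col1a2, Col3a1 and Postn were lower in the KO library. The 30 matrix genes summed to 7992 CPM in WT (7704 to 8287) and 5824 CPM in KO (5572 to 6084), a log2 ratio of −0.46 (−0.54 to −0.37) against −0.23 (−0.25 to −0.21) in remaining cells. Of the 2921 UMIs of these genes in selected cells of WT, Col1a1, Col1a2, Col3a1 and Postn held 694, 318, 279 and 207. Of the 2007 in KO they held 330, 155, 156 and 66. Of 21 tested, 3 met the size rule (Dcn, Lum and Postn), all lower. Postn went from 566 to 192 CPM (−1.56, −1.99 to −1.16), and its ratio in remaining cells was −1.42. Col1a1 went from 1899 to 958 CPM (−0.99, −1.18 to −0.80), with −0.88 in remaining cells. Lum went from 205 to 87.1 CPM (−1.24, −1.90 to −0.61), with −0.12 in remaining cells. Dcn (decorin) went from 27 to 5 UMIs (−2.35, −4.08 to −0.95). Col5a1 and Col5a2 were at −0.29 (−0.98 to 0.39) and −0.36 (−1.16 to 0.43). Fn1 (fibronectin) went from 604.6 to 420.7 CPM (−0.52, −0.84 to −0.21). Col4a2, a basement membrane collagen chain, and Vcan (versican), a large proteoglycan, were higher. Col4a2 went from 178 to 284 CPM (0.68, 0.21 to 1.15) and Vcan from 293 to 464 CPM (0.67, 0.30 to 1.03).

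As a list, the matrix genes were lower in KO in Col1a1-rich cells, where Col1a1, Col1a2, Col3a1 and Postn held most of the list's UMIs. They held 664, 275, 187 and 197 of 1950 UMIs in WT, and 298, 104, 86 and 64 of 1028 in KO. The rest of the list was not compared on its own. In cells with at least 3 Col1a1 UMIs the matrix list was 17737 CPM in WT and 12634 CPM in KO (−0.49, −0.60 to −0.38), and in cells with fewer it was 3799 and 3719 CPM (−0.03, −0.16 to 0.10). The division uses a gene of the list, and the difference between these ratios was not tested. Postn was lower in KO in both sets, from 197 to 64 UMIs in Col1a1-rich cells (−1.19, −1.62 to −0.77) and from 10 to 2 in Col1a1-poor cells (−2.36, −5.60 to −0.13). Sparc went from 63 to 112 UMIs in Col1a1-poor cells (0.79, 0.33 to 1.26) and from 107 to 64 in Col1a1-rich cells (−0.31, −0.78 to 0.15). Among selected cells with a Tagln UMI the list stood at −0.16 (−0.26 to −0.05), and Postn and Col1a1 were at −0.83 and −0.49. Without the cells that had at least 1% globin UMIs it stood at −0.57 (−0.65 to −0.49). The contractile list was higher in KO in both sets, by 0.44 (0.30 to 0.59) in Col1a1-rich and 0.27 (0.16 to 0.38) in Col1a1-poor cells.

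Signal and regulator genes differed in either direction. Of 16 regulators tested, Mef2a, Mef2c and Heyl had intervals above 0, Hand1 and Gata6 below it, and Heyl alone met the size rule. Heyl went from 13 to 27 UMIs (1.14, 0.14 to 2.22). Mef2c, a transcription factor of the second heart field and of muscle, went from 101 to 200 CPM (0.98, 0.39 to 1.60). In remaining cells Mef2c was at 0.42 and Mef2a at 0.28. Gata6 went from 320 to 180 CPM (−0.83, −1.30 to −0.38), with −0.45 in remaining cells. Hand1 went from 50 to 24 UMIs (−0.97, −1.74 to −0.24), with −1.06 in remaining cells, and among cells with a Tagln UMI it stood at 0.15 (−0.89 to 1.22). Of 12 genes of the TGF-β and BMP list tested, Msx1, a target of BMP signals, met the size rule, from 98.5 to 43.5 CPM (−1.18, −2.15 to −0.27), and Id2 and Id3, direct BMP targets, were at −0.47 and −0.51. Msx1, Id2 and Id3 were at −0.45, −0.19 and −0.26 in remaining cells. The BMP ligand gene Bmp4 went from 57.5 to 107 CPM (0.90, 0.09 to 1.75) and Bmp2 was at 0.15 (−0.49 to 0.79). Of 9 genes for PDGF, endothelin and Notch signals tested, Notch2 was at −0.51 (−0.78 to −0.24), with −0.71 in remaining cells, and 0 met the size rule.

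Cell cycle lists differed little. The S phase list stood at −0.02 (−0.11 to 0.07) and the G2/M list at 0.00 (−0.06 to 0.07), with 0.05 and 0.11 in remaining cells, and 0 of 38 and 0 of 46 genes tested met the size rule. Among lineage lists, splanchnic mesoderm stood at −0.49 (−0.77 to −0.21), close to the −0.44 of remaining cells, proepicardium and mesothelium at 0.73 (0.22 to 1.26) and head mesenchyme at 0.35 (0.08 to 0.63). The migrating neural crest list stood at 0.11 (−0.08 to 0.29). Crabp1 alone was at 0.01 (−0.19 to 0.21), and the other 9 genes went from 64 to 93 UMIs (0.62, 0.15 to 1.11), against −0.00 (−0.06 to 0.05) in remaining cells. Outside the lists, the largest ratios upward were Hist1h1b, a linker histone gene, from 14 to 44 UMIs (1.74, 0.84 to 2.72), the non-coding gene AY036118, from 150 to 470 CPM (1.64, 1.19 to 2.11), and Fblim1, an adaptor of focal adhesions, from 10 to 29 UMIs (1.62, 0.54 to 2.82). Hist1h1b and AY036118 were also higher in remaining cells, by 1.81 and 1.20. Wnt1 itself had 1 UMI in WT and 9 UMIs in 2 cells in KO. The crest factor gene Sox9 was at −0.29 (−0.74 to 0.15) and Chd7, a chromatin remodeller gene, at 0.33 (−0.17 to 0.83).

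**Figure D5:**
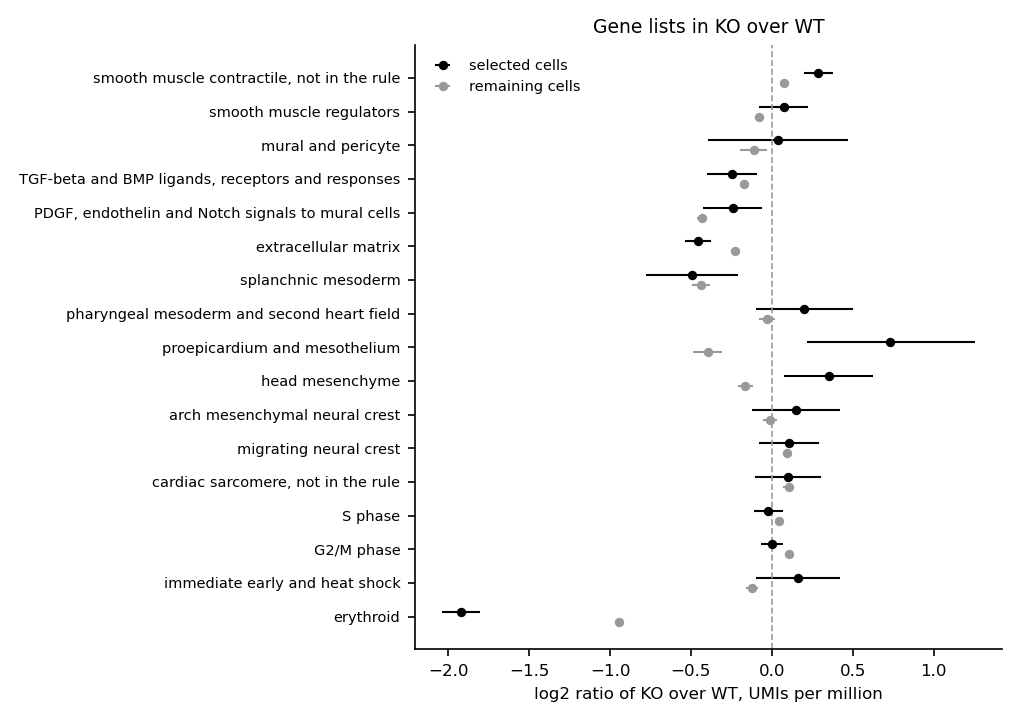
Log2 ratio of KO over WT for 17 gene lists in selected cells (black) and remaining cells (grey), with exact 95% intervals for counting error. The contractile list lay at 0.29 and the matrix list at −0.46 in selected cells, and the erythroid list at −1.92, or −0.99 without globin-rich cells. Crabp1 holds most of the migrating neural crest list.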

How the data were processed

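Single-cell RNA-seq (10X 3′) libraries of 1 WT and 1 KO pool were compared. Per the submitters' processing notes, Cell Ranger 1.3.1, Scanpy and mm10 were used; the methods name a human genome with ZsGreen1, although the symbols are mouse. The methods describe filters on genes, cells and mitochondrial and ribosomal genes and doublet removal with DoubletFinder, and do not say whether the deposited cells had passed it; no doublet caller was run here. The deposited values are a score that the authors made as the square root of UMI counts scaled to 1641 per cell. Squaring and dividing by the smallest nonzero square of each cell gave whole UMIs for 100% of values within 0.01. The design had assumed counts, so sums of recovered UMIs with exact intervals were used and no model was fitted, since each genotype had 1 library. Depth was 533 to 4464 UMIs per cell in WT and 828 to 4588 in KO, and the libraries held 20781384 and 18936857 UMIs.

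Ratios of KO over WT used genes with at least 30 UMIs, and folds over remaining cells genes with at least 50 UMIs with 10 CPM added. Genes named are those of the rule, the study and the 31 gene lists, the 20 with the highest fold, and the 10 highest and 10 lowest ratios whose interval left out 0. Dlk1 and Myadm fall outside this rule and were chosen after their values were seen. The cells and the lists were chosen with earlier results of these data known, and the divisions by Col1a1 and by Tagln were chosen after their values were seen. Of 18131 symbols, 17917 were in GENCODE and 214 were not. Alternatives changed the UMI limits of the rule, thinned cells, changed UMI minimums and left out globin-rich or shared-barcode cells. Scripts were tested on simulated counts. Python 3.11.15, numpy 2.4.6, scipy 1.17.1, pandas 2.3.3 and matplotlib 3.10.9 were used.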

Additional observations from a re-analysis of the deposited data

Results flagged for a closer look

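The following lists and genes are among those that were higher in KO in selected cells and lower in KO in remaining cells. In selected cells their interval left out 0. The difference between the ratios of selected and remaining cells was not tested. Over all 4731 genes tested in selected cells, 263 (5.56%) had an interval above 0. Myl9 (0.48 and −0.07) also had these directions and is not listed. The list of proepicardium and mesothelium genes stood at a log2 ratio of 0.73 (0.22 to 1.26) in selected and −0.40 in remaining cells, and at least 2 of its UMIs were present in 8 WT and 15 KO selected cells. Its ratio was 1.11 (0.26 to 2.00) in Col1a1-rich and 0.59 (−0.07 to 1.26) in Col1a1-poor selected cells. In selected cells with 0 Col1a1 UMIs it was 0.02 (−0.84 to 0.88), on 25 UMIs in each library. The head mesenchyme list stood at 0.35 (0.08 to 0.63) and −0.17. Heyl, the Notch target, stood at 1.14 and −0.32 on 13 and 27 UMIs, and Bmp4 at 0.90 and −0.46 on 21 and 37 UMIs. Col4a2, a basement membrane collagen chain, stood at 0.68 and −0.35. Foxd1, a mesenchymal transcription factor, stood at 0.70 and −0.26, Jund, an AP-1 subunit, at 1.00 and −0.40, and Tspan5, a tetraspanin, at 1.37 and −0.19.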

How the results depend on the processing

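No paired analysis was possible because each genotype had 1 library, and no replicate could be left out. Of the summary values recomputed under the alternatives, 134 stayed within their interval or within 1.5 times the count and 24 moved; of the values for single genes, 129 stayed, 45 moved and 2 reversed. The settings without globin-rich cells, with a Tagln UMI, without shared barcodes and without Crabp1 were chosen after seeing the data. With at least 5 UMIs of Acta2, Tagln and Cnn1, the log2 ratio of the share of selected cells was 0.45. With at least 4, the matrix list stood at −0.31, migrating neural crest at −0.29, erythroid genes at −1.02, PDGF, endothelin and Notch signals at −0.047, and Prdm6 had 1 UMI in KO. With at most 2 cardiac UMIs the erythroid list stood at −2.11. Without Crabp1 the migrating neural crest list stood at 0.62. After thinning, the contractile list stood at 0.19 and the matrix list at −0.61. Without globin-rich cells, the matrix list stood at −0.57 and the erythroid list at −0.99. With a Tagln UMI, the matrix list stood at −0.16 and migrating neural crest at −0.18, and Tagln (−0.061) and Hand1 (0.15) reversed. That setting chose cells on Tagln itself, so its Tagln value is a description of the choice. Genes at least 2-fold higher in KO numbered 33 of 1987 tested with at least 4 UMIs (1.66%), 23 of 2472 after thinning (0.930%), 123 of 13635 with no UMI minimum (0.902%) and 3 of 1435 with at least 100 UMIs per gene (0.209%). Those lower numbered 36 (1.81%), 47 (1.90%), 203 (1.49%) and 9 (0.627%). In cells with a Tagln UMI, 56 of 3166 genes were higher (1.77%) and 43 lower (1.36%), against 59 and 86 of 4731 in the main setting. With at least 200 UMIs per gene, 13 genes were at least 2-fold higher than in remaining cells. Fewer cells or genes enter most of these settings; the cause of the changes in the list ratios was not tested.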
